A study of Mus musculus with 18 samples.

Results

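The Slit ligands (Slit1, Slit2 and Slit3) and their Roundabout receptors (Robo1, Robo2, Robo3 and Robo4) were followed through RNA sequencing and chromatin accessibility profiling (ATAC-seq) of mouse small cell lung cancer (SCLC). The family was chosen by the measured values of Slit3, which stood among the genes most raised in both assays when the mutant tumors were set against their controls, so the levels of Slit3 and of the peaks around it are given as a description, without a test. The 7 genes were taken from the 46078 genes of the RNA table, and 5 of them passed the filter on low counts that left 15514 genes for testing. Robo3 and Robo4 did not pass it. In that table Slit1 is ENSMUSG00000025020, Slit2 ENSMUSG00000031558, Slit3 ENSMUSG00000056427, Robo1 ENSMUSG00000022883, Robo2 ENSMUSG00000052516, Robo3 ENSMUSG00000032128 and Robo4 ENSMUSG00000032125. In the ATAC table, 144 of 111664 peaks overlapped a member or lay within 100000 bp of it, 46 of them around Slit3 and 98 around the other 6 members.

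Slits are large secreted proteins that bind the extracellular domains of Robo receptors, with heparan sulfate chains on syndecans and glypicans as part of the binding complex. In the nervous system, Slit bound to Robo repels growing axons and migrating neurons through adaptors and regulators of small GTPases and actin, among them the srGAPs, Nck, Pak and Ena/VASP proteins. Robo3 is a divergent member that acts in commissural axons, and Robo4 is the receptor of endothelial cells. Slit and Robo genes are also expressed in the developing lung, and silencing of SLIT2 in lung cancers has been described.

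The samples came from 3 genotypes of mice whose lungs received Adenovirus-Cre at 8 weeks of age, with tumors taken 28 weeks later. All 3 genotypes carried the conditional triple knockout (TKO) of Rb1, Trp53 and a Retinoblastoma-like gene, written as Rbl1 in the labels and as either Rbl1 or Rbl2 in the study's text. TKO tumors served as controls, TKO; Carm1KO tumors (Carm1KO) also lost the arginine methyltransferase gene Carm1 through the same Cre, and TKO; NfibR388K tumors (NfibR388K) carried a knock-in that replaces with lysine the arginine of the transcription factor NFIB that CARM1 methylates. The knock-in was made in the germline, so cells other than the tumor also carried it. Each genotype had 3 RNA and 3 ATAC libraries from separate animals. The study states that both assays were run on the same biopsies, while the labels do not say which RNA library goes with which ATAC library. The Methods describe sorting of tdTomato-positive cells that had undergone Cre recombination, whereas other passages name tumor biopsies or cell lines, so how far host cells were removed is not settled.

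RNA libraries held 15848866 to 20915057 counts on genes and ATAC libraries 26917178 to 47653979 reads in peaks. Between 9.995% and 12.2% of RNA reads fell on no annotated gene in TKO, and between 3.65% and 5.17% in the mutants. Nfib stood at 523 ± 89.5 CPM (counts per 1e6 counts of the library, TMM-scaled, mean ± SD, n = 3) in TKO, 126 ± 78.1 in Carm1KO and 93.1 ± 10.98 in NfibR388K tumors. Carm1 stood at 81.7 ± 32.3, 64.3 ± 14.2 and 102 ± 1.82 CPM in the same order, and whole-gene counts check neither a deletion of some exons nor the knock-in allele. The markers of cell types differed between the genotypes. Summed CPM of 12 neuroendocrine markers, which define SCLC, ran from 1694 to 3932 in TKO and from 33.5 to 51.2 in NfibR388K tumors, and stood at 59.2, 188 and 1817 in the 3 Carm1KO libraries. The label of a neuroendocrine tumor therefore went against the markers in 5 of 6 mutant libraries. Carm1KO replicate 3 was mixed: Calca alone held 832 of its 1817 CPM. Some of its other markers lay within the TKO range, such as Chga (210 CPM), and others below it, such as Insm1 (83.8 CPM). Its sum of the fibroblast markers that follow was the highest of all, 30994 CPM. Summed CPM of 12 fibroblast markers ran from 110 to 310 in TKO, from 22611 to 30994 in Carm1KO and from 17429 to 21427 in NfibR388K tumors, with 12 of 12 called higher in Carm1KO and 11 of 12 in NfibR388K tumors. Of these, Col1a2, Col3a1 and Lum were at 0 in TKO replicate 1 and Lum also in replicate 2. Of the neuroendocrine markers, 2 of 12 were called lower in Carm1KO and 11 of 12 in NfibR388K tumors. Summed leukocyte markers ran from 4.25 to 56.5 CPM in TKO, from 183 to 2804 CPM in Carm1KO and from 27.0 to 529 CPM in NfibR388K tumors. Summed markers of lung epithelium ran from 282 to 634 CPM in TKO, and stood at 3.59, 57.5 and 879 CPM in the Carm1KO and at 2801, 211 and 3.49 CPM in the NfibR388K libraries. Most of the TKO sums was Nkx2-1 alone, with 600, 386 and 236 CPM, and it was lower in every mutant library. Sftpb alone held 1734 CPM of the sum in NfibR388K replicate 1. Fewer cells of a type and less RNA per cell cannot be told apart in such bulk libraries. Of these sums, that of the fibroblast markers separated all 6 mutant libraries from TKO, and so moved with the Slit and Robo differences given here. The neuroendocrine sum did so in all mutant libraries but Carm1KO replicate 3, and the leukocyte and lung epithelium sums overlapped TKO. The part of these cell types in the Slit and Robo differences was not tested.

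Slit3 was nearly absent from TKO tumors and abundant in both mutants. It had 0, 3 and 1 counts in TKO replicates 1 to 3. The Carm1KO libraries held 361, 179 and 57.04 CPM, and the NfibR388K libraries held 644, 932 and 55.8 CPM. All 6 mutant libraries were above all TKO libraries, as for 22.3% of all genes tested, and the third library of each mutant was the lowest of its genotype. Against the floor of 3 counts per TKO library, mean Slit3 was at least 1466-fold higher in Carm1KO and at least 4003-fold higher in NfibR388K tumors. These are the values for which the family was chosen.

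Slit2, the ligand best known for repelling commissural axons at the midline, was also higher in both mutants, from a base above 0. It stood at 10.7, 4.06 and 31.7 CPM in TKO, at 476, 410 and 315 CPM in Carm1KO and at 309, 553 and 86.1 CPM in NfibR388K tumors. The groups did not overlap, as for 22.3% of all genes tested in this direction, and NfibR388K replicate 3 was the lowest mutant library. Mean Slit2 was 400.3 ± 81.4 CPM in Carm1KO and 316 ± 234 CPM in NfibR388K tumors against 15.5 ± 14.4 CPM in TKO. Slit2 rose by 4.69 (SE 0.93) on the log2 scale in Carm1KO tumors, with a Benjamini-Hochberg adjusted p of 0.00827 over all genes tested (quasi-likelihood test of edgeR, from here on the edgeR adjusted p). In NfibR388K tumors it rose by 4.35 (SE 0.91, edgeR adjusted p = 0.00823). Genes counted as called had an adjusted p under 0.1 and a log2 fold change beyond 0.8 in size.

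Slit1, the ligand most restricted to the nervous system, went the other way. It stood at 131, 152 and 11.9 CPM in TKO, at 0.0677, 0.349 and 11.2 CPM in Carm1KO and at 0.668, 0 and 0.127 CPM in NfibR388K tumors. TKO replicate 3 was far below the other TKO libraries and nearly equal to Carm1KO replicate 3. Summed neuroendocrine markers were 3932 CPM in TKO replicate 3, 1817 CPM in Carm1KO replicate 3, and 1742 and 1694 CPM in TKO replicates 1 and 2. Scg2 alone held 1841 CPM of the TKO replicate 3 sum, against 34.0 and 137 CPM in TKO replicates 1 and 2. Calca alone held 832 CPM of the Carm1KO replicate 3 sum, so the order of these sums leans on single genes. No mutant library reached the lowest TKO library, as for 23.3% of all genes tested in this direction. Slit1 fell by 8.49 (SE 2.23) on the log2 scale in NfibR388K tumors (edgeR adjusted p = 0.0186). In Carm1KO tumors it fell by 4.66 (SE 1.81, edgeR adjusted p = 0.0787), and this call was lost without Carm1KO replicate 1 or 2 or TKO replicate 1 or 2, with edgeR adjusted p from 0.144 to 0.166. Without Carm1KO replicate 3 the log2 fold change was -8.74 (edgeR adjusted p = 0.0130), and over all alternatives tried the adjusted p ran up to 0.171.

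**Figure D1:**
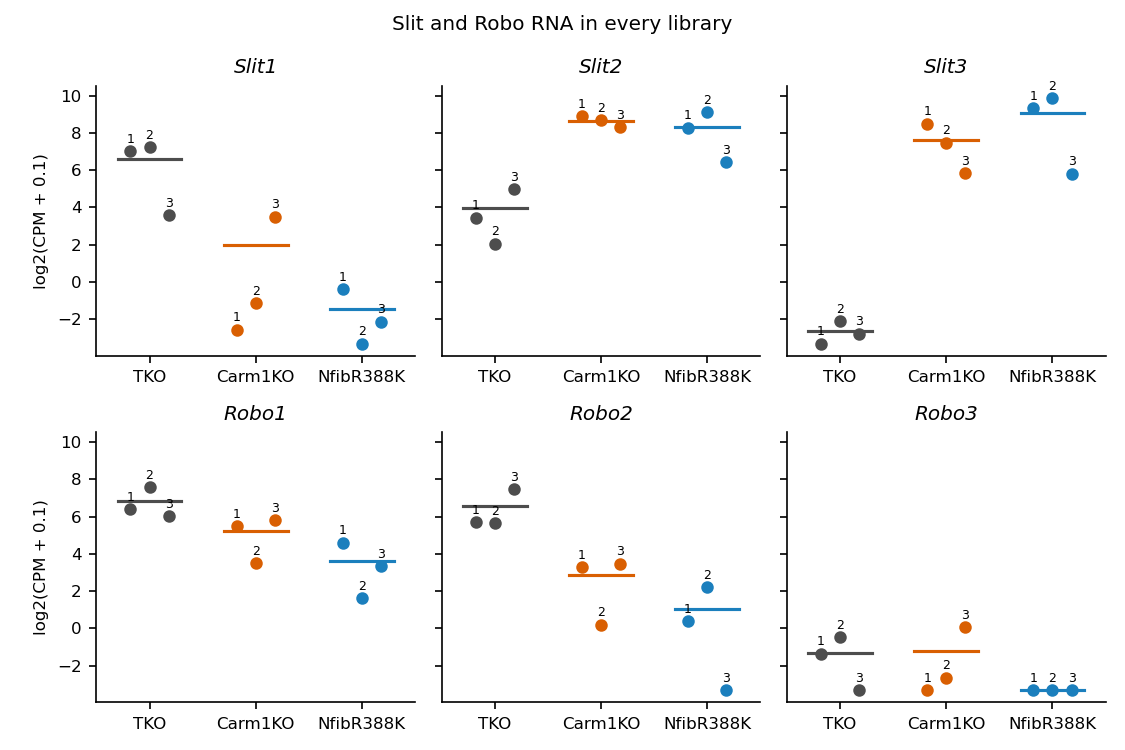
RNA level of Slit1, Slit2, Slit3, Robo1, Robo2 and Robo3 in the 9 libraries, as log2(CPM + 0.1); each point is a library, and each line marks the log2 of the genotype's mean CPM + 0.1 (n = 3). Slit2 and Slit3 are higher in all 6 mutant libraries than in TKO, Slit1 and Robo2 are lower, and Slit1 of TKO replicate 3 (11.9 CPM) lies next to that of Carm1KO replicate 3 (11.2 CPM). Robo4 had 0 counts in all 9 libraries and is not plotted.

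Per length of coding transcript, the makeup of ligand RNA differed between TKO and the mutants along with its total. In TKO replicates 1 and 2, Slit1 made up 95.5% and 98.4% of the summed CPM per kb of the 3 Slit genes, and in TKO replicate 3 it made up 39.6% beside 60.2% of Slit2. In the 6 mutant libraries Slit1 made up at most 4.43%. Slit2 led in Carm1KO replicates 2 and 3, with 54.5% and 71.0%, whereas Slit3 led in Carm1KO replicate 1 with 59.1% and in all NfibR388K libraries with 55.2% to 79.8%. Slit3 took part in this sum, so its share is a description only. The summed level of the 3 ligands was 24.2, 27.2 and 5.29 CPM per kb in TKO, 117, 75.5 and 44.5 in Carm1KO and 154, 234 and 19.3 in NfibR388K tumors. NfibR388K replicate 3 thus lay below TKO replicates 1 and 2 in total ligand, while the Carm1KO libraries lay above all TKO libraries.

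Robo1 and Robo2 were lower in every mutant library than in any TKO library, and both were called lower in NfibR388K tumors. Robo1, a receptor of Slits on axons and many other cells, stood at 83.5, 191 and 65.1 CPM in TKO, at 44.8, 11.2 and 55.7 CPM in Carm1KO and at 24.2, 2.95 and 10.1 CPM in NfibR388K tumors. All mutant libraries were below all TKO libraries, as for 23.3% of all genes tested, with Carm1KO replicate 3 close to TKO replicate 3. Robo1 fell by 3.19 (SE 0.89) on the log2 scale in NfibR388K tumors (edgeR adjusted p = 0.0236). In Carm1KO tumors its log2 fold change was -1.60 (95% interval -3.54 to 0.34, edgeR adjusted p = 0.166), which was not called.

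Robo2, which shares Slit binding with Robo1, stood at 52.2, 50.6 and 180 CPM in TKO. The Carm1KO libraries held 9.75, 1.05 and 10.9 CPM, and the NfibR388K libraries held 1.21, 4.55 and 0 CPM. The groups did not overlap, as for 23.3% of all genes tested in this direction, and TKO replicate 3 was the highest of all libraries. Robo2 fell by 5.61 (SE 1.54) on the log2 scale in NfibR388K tumors (edgeR adjusted p = 0.0219). In Carm1KO tumors it fell by 3.70 (SE 1.40, edgeR adjusted p = 0.0728), and this call was lost when any 1 of the Carm1KO or TKO libraries was left out, with edgeR adjusted p from 0.103 to 0.189. Over all alternatives tried, the adjusted p ran from 0.0342 to 0.189.

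Robo3 had 6, 14 and 0 counts in TKO, 0, 1 and 17 counts in Carm1KO and 0 counts in every NfibR388K library. These few counts do not separate the genotypes, and the highest was in Carm1KO replicate 3. Robo4, the endothelial receptor, had 0 counts in all 9 libraries. The sum of 8 endothelial markers ran from 2.28 to 77.1 CPM over the libraries and was highest in Carm1KO replicate 3, where Vwf alone held 62.3 CPM. Emcn was at 0 in all libraries, while Cdh5 was called higher in both mutants at no more than 2.77 CPM. Per kb of coding transcript, mean Robo1 and Robo2 in TKO were 14.96 and 10.96 CPM per kb, and their order differed between libraries, with Robo1 at 64.3%, 80.8% and 29.2% of the summed receptors. Summed receptors stood at 17.2, 31.2 and 29.5 CPM per kb in TKO, at 7.06, 1.62 and 8.84 in Carm1KO and at 3.34, 0.921 and 1.33 in NfibR388K tumors, without overlap between TKO and the mutants.

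**Figure D2:**
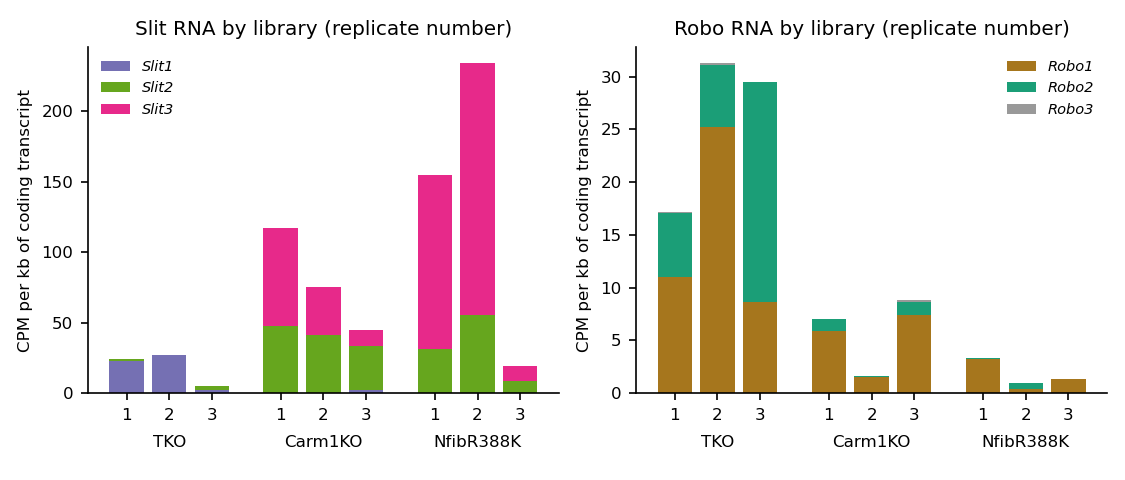
Summed level of the Slit ligands and of the Robo receptors in each RNA library, in CPM per kb of coding transcript, with each bar split by gene. Slit1 fills most of the ligand bar in TKO replicates 1 and 2, Slit2 and Slit3 fill it in the mutants, and the receptor bars are shorter in all 6 mutant libraries.

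Of the 4 members tested besides Slit3, 3 were called in Carm1KO tumors (1 higher and 2 lower) and 4 in NfibR388K tumors (1 higher and 3 lower). Of all genes tested, 38.8% were called in Carm1KO tumors and 45.8% in NfibR388K tumors. The share of calls that were higher over all genes was 52.9% in Carm1KO and 48.7% in NfibR388K tumors, and 39.5% and 35.9% with scaling to library totals only. The 2 comparisons share the TKO libraries.

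The mutants were also set against each other, a contrast that the choice of Slit3 did not use. No member was called between Carm1KO and NfibR388K tumors. Slit3 had a log2 fold change of -1.45 (95% interval -3.70 to 0.80, edgeR adjusted p = 0.698), with a mean of 199 ± 153 CPM in Carm1KO and 544 ± 446 CPM in NfibR388K tumors. For Slit2 it was 0.34 (-1.50 to 2.18, edgeR adjusted p = 0.939). Slit1 was at 3.83 (-0.58 to 8.24, edgeR adjusted p = 0.595), a value carried by Carm1KO replicate 3, without which it was -0.28. Robo1 was at 1.59 (-0.36 to 3.53) and Robo2 at 1.91 (-1.17 to 4.98), with edgeR adjusted p of 0.614 and 0.714. Leaving out 1 library gave from -2.20 (without Carm1KO replicate 1) to -0.81 (without NfibR388K replicate 2) for Slit3, from 1.12 (without NfibR388K replicate 2) to 2.51 (without NfibR388K replicate 1) for Robo1, and from 1.32 (without NfibR388K replicate 3) to 3.55 (without NfibR388K replicate 2) for Robo2. For Slit2 it gave from -0.11 (without NfibR388K replicate 3) to 1.02 (without NfibR388K replicate 2). The intervals are wide, so like levels were not shown. Of all genes, 0% were called in this contrast by edgeR (smallest adjusted p 0.115), 1415 genes had an unadjusted p under 0.05, none of them a member, and DESeq2 called 316 genes higher and 222 lower in Carm1KO, again none of them a member.

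**Figure D3:**
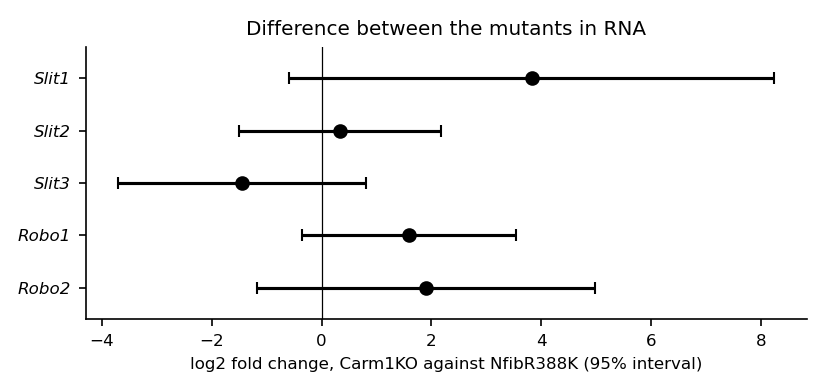
Log2 fold change of RNA between Carm1KO and NfibR388K tumors for Slit1, Slit2, Slit3, Robo1 and Robo2; points are the edgeR estimates and bars their 95% intervals. All 5 intervals cross 0, and the widest is that of Slit1, from -0.58 to 8.24.

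Of the genes listed as acting with Slits and Robos outside the cell, more were called higher than lower in the mutants. This list and that of the intracellular genes below were chosen with earlier results of these data known, so their counts are a description. Of 22 tested extracellular partners (other ligands, co-receptors, heparan sulfate proteoglycans and receptor proteases), 10 rose and 4 fell in both mutants, and their median log2 fold change was 0.90 in Carm1KO and 1.26 in NfibR388K tumors beside -0.03 and -0.05 over all genes tested. Over all genes, 17.9% were called higher and 15.4% lower in both mutants. Sdc4, a syndecan that carries heparan sulfate, stood at 8.44, 12.2 and 4.47 CPM in TKO, at 236, 168 and 142 CPM in Carm1KO and at 347, 245 and 258 CPM in NfibR388K tumors, and rose by 4.45 and 5.08 on the log2 scale. The proteoglycan genes Sdc1, Sdc2, Gpc1 and Gpc4, the dystroglycan gene Dag1, whose product binds Slits, and the heparan sulfate polymerase gene Ext1 rose in both mutants too. The proteoglycan genes Sdc3 (-0.02 and -0.38) and Gpc6 (-0.04 and 0.37) were not called. Several of these genes are expressed by fibroblasts, whose markers were higher in the same libraries, and the part of such cells was not tested.

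Among guidance factors, Cxcl12, the chemokine whose signal through Cxcr4 is dampened by Slit2, stood at 2.64, 2.18 and 2.88 CPM in TKO and rose to 420, 1360 and 475 CPM in Carm1KO (edgeR adjusted p = 0.000458) and 148, 86.6 and 237 CPM in NfibR388K tumors (edgeR adjusted p = 0.00079). Unc5b, a netrin receptor that also pairs with Robo4, stood at 8.36 to 10.03 CPM in TKO, 81.3 to 155 CPM in Carm1KO and 87.9 to 98.9 CPM in NfibR388K tumors, and rose by 3.79 and 3.35 on the log2 scale. Dcc, the netrin receptor that Robo1 silences on binding Slit, stood at 14.9, 25.7 and 6.28 CPM in TKO and fell to at most 0.449 CPM in any mutant library. Nell1, a relative of the Robo3 ligand Nell2, was at 2.73, 0.568 and 10.4 CPM in TKO and at 0 in 5 of 6 mutant libraries. Flrt1 fell (log2 fold changes of -2.72 and -5.66), and Flrt3, the Robo1 co-receptor of thalamic axons, fell in both mutants.

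Of the 25 tested genes of the intracellular side, 5 rose and 3 fell in Carm1KO tumors, where 38.8% of all genes were called, and 5 rose and 7 fell in NfibR388K tumors, where 45.8% were. The list is near these shares, and its median log2 fold change was -0.33 and -0.51. The actin regulators Vasp (1.93 and 1.75) and Cap1 (1.38 and 1.63) and the GTPase genes Rhoa (1.34 and 1.51), Cdc42 and Rac1 rose in both. The guanine nucleotide exchange factor gene Sos2 (-1.54 and -1.74), the Ena/VASP relative Evl (-1.10 and -1.73) and Usp33, which deubiquitinates Robo1 (-0.83 and -0.93), fell in both. The Slit-Robo GTPase activating protein genes Srgap1 (-3.76) and Srgap3, with Sos1 and Enah, fell in NfibR388K tumors and were not called in Carm1KO tumors. No gene of either list was called between the mutants.

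Likeness to the members was measured as Pearson's r of log2 CPM over the 9 libraries. These fall into the same genotypes for every gene, so a high r can come from the step between TKO and the mutants alone. The genes most like Slit3 were Bdkrb1 (0.996), Pla2r1 (0.994), Tnfrsf9 (0.993), Mmp3 (0.992) and Pi15 (0.991), with r from 0.902 to 0.968 over the 6 mutant libraries alone. The most like Slit2 were Fosl2 (0.988), Sypl (0.987) and Clmp (0.980), and the most like Slit1 were Cntn4 (0.988), Cxxc4 (0.985) and Ncan (0.982). Robo2 was most like Rnf170 (0.984), Gtf2a1 (0.978) and Trip11 (0.9747). For Robo1 the leading genes (r of 0.979 to 0.978) were the predicted genes Gm14410, Gm3636 and Gm3739. Whether their reads are shared with other genes was not checked, so they are uncertain. Among the members, Slit2 and Slit3 had r = 0.925 over 9 libraries and 0.678 over the 6 mutant libraries, and Robo1 and Robo2 had 0.691 and 0.394.

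In the ATAC data, most called peaks around Slit2 were higher in the mutants, and most around Slit1, Robo1 and Robo2 were lower. Over the windows of the 6 members other than Slit3, of 96 peaks tested, 26 were called higher and 53 lower in Carm1KO tumors, and 24 higher and 53 lower in NfibR388K tumors, where called peaks had an edgeR adjusted p under 0.1 and a log2 fold change beyond 0.5. Over all 111116 peaks tested, 38.7% were called higher and 32.4% lower in Carm1KO tumors, and 39.3% and 34% in NfibR388K tumors. Peaks that did not overlap between TKO and the 6 mutant libraries made up 33.1% (higher) and 28.6% (lower) of all peaks. In either direction, 71.1% of all peaks were called in Carm1KO and 73.3% in NfibR388K tumors, and the counts around each gene are to be read against these shares. The median log2 fold change over all peaks was 0.22 in both comparisons. It was 0.79 in both with scaling to library totals only, which moved the share of called peaks that were higher from 54.4% to 65.9% in Carm1KO and from 53.6% to 64.3% in NfibR388K tumors. Under that scaling, the windows held 33 peaks called higher and 44 lower in Carm1KO and 31 higher and 45 lower in NfibR388K tumors.

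Around Slit2 (chr5:47983138-48307733, plus strand, GRCm38), 15 of 20 peaks were higher in all 6 mutant libraries than in any TKO library. Another 1 was lower, and over all peaks tested the shares were 33.1% higher and 28.6% lower. Called peaks numbered 16 higher and 1 lower in Carm1KO and 15 higher and 1 lower in NfibR388K tumors, against the 38.7% and 39.3% of all peaks called higher. The median log2 fold change was 3.68 in Carm1KO and 3.22 in NfibR388K tumors, or 3.37 and 2.88 with the 4 peaks that had at most 3 reads in every TKO library at their lower bound. The 6 intergenic peaks were all among the 15 called higher in both mutants, with 8 of 12 intronic peaks. The summed reads of the window were 36.8 ± 13.6 CPM in TKO, 99.5 ± 10.95 CPM in Carm1KO and 88.9 ± 10.2 CPM in NfibR388K tumors (n = 3 each).

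The start site of Slit2 was open in TKO already. Its peak at chr5:47982574-47986844 held 15.9, 5.93 and 25.1 CPM in TKO, 34.5, 49.4 and 34.5 CPM in Carm1KO and 38.5, 47.7 and 30.4 CPM in NfibR388K tumors. All mutant libraries were above TKO, and the rise of 1.34 and 1.31 on the log2 scale was small beside that of the RNA (edgeR adjusted p = 0.0142 and 0.0146). The peak with the largest rise, chr5:48331070-48331926, lay past the end of Slit2 in an intron of 5730480H06Rik. It held 0, 0.0927 and 0 CPM in TKO against 4.55, 4.66 and 5.9 CPM in Carm1KO and 3.91, 5.32 and 5.1 CPM in NfibR388K tumors. TKO had at most 3 reads there in any library, and the peak was at least 48.0-fold higher in Carm1KO (edgeR adjusted p = 8e-05) and at least 45.5-fold higher in NfibR388K tumors (edgeR adjusted p = 7.2e-05). One intronic peak, chr5:48081346-48081816, fell, from 4.24, 1.42 and 1.98 CPM in TKO to 0.232, 0.173 and 0.411 CPM in Carm1KO and at most 0.209 CPM in NfibR388K tumors.

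The 300 bases in the middle of that most raised peak (chr5:48331348-48331647, plus strand) and the bases just before the Slit2 start within its start-site peak (chr5:47982905-47983137, plus strand), both from the RefSeq genome of build GRCm38.p6, are shown since they differ in how far they opened. Capitals mark matches to AP-1 and to the E-box in the first and to the short site of NFI factors in the other.
Slit2 most raised peak: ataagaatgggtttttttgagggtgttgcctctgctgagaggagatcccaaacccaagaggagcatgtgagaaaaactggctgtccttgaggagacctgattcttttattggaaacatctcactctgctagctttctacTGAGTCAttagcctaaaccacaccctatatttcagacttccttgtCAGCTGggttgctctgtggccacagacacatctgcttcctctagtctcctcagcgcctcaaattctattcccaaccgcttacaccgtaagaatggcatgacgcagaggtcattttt
Slit2 before the start: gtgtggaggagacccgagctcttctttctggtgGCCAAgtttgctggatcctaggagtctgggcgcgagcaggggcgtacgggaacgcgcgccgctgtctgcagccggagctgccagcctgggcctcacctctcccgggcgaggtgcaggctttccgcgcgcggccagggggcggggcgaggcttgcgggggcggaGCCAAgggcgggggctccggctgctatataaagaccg

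Around Slit3 (chr11:35121224-35708507, plus strand), whose peaks the choice of the family used, 29 of 46 peaks were higher in all 6 mutant libraries than in TKO. Another 6 were lower, and over all peaks tested the shares were 33.1% higher and 28.6% lower. The median log2 fold change was 2.37 in Carm1KO and 2.59 in NfibR388K tumors. The peak with the largest rise, chr11:35065318-35066891, lay 55120 bp upstream of the start in intergenic sequence. It held 0.191, 0.247 and 0.296 CPM in TKO, 24.7, 25.9 and 21.5 CPM in Carm1KO and 20.9, 27.8 and 24.7 CPM in NfibR388K tumors. The mutant libraries lay close together here, with means 98.3-fold and 99.9-fold above TKO. The start-site peak, chr11:35120484-35122950, held 1.94, 1.39 and 3.21 CPM in TKO, 29, 22.2 and 14.3 CPM in Carm1KO and 29.7, 36.7 and 7.22 CPM in NfibR388K tumors. Replicate 3 was the lowest of each mutant at the start site. The RNA libraries of the same number were the lowest for Slit3 too, but the labels do not pair the assays by number.

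Not all chromatin at Slit3 opened. An intronic peak at chr11:35569142-35569651 held 3.73, 4.45 and 1.14 CPM in TKO against 0.568, 0.211 and 0.435 CPM in Carm1KO and 0.149, 0.192 and 0.137 CPM in NfibR388K tumors. Another intronic peak, chr11:35624245-35625420, had a mean of 8.84 CPM in TKO, 0.91 CPM in Carm1KO and 1.02 CPM in NfibR388K tumors. It lay 7320 bp from Mir218-2, one of the genes that give miR-218-5p from introns of Slit3 (chr11:35616816-35616925) and Slit2 (Mir218-1, chr5:48223942-48224051). The microRNA is shown because both ligands that were higher in the mutants host it; in its RefSeq sequence capitals mark the seed, bases 2 to 8.
miR-218-5p: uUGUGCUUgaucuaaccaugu
The RNA table held 1 count of Mir218-1 and 0 of Mir218-2 over the 9 libraries, so the level of the mature microRNA was not measured. The middle of the most raised Slit3 peak (chr11:35065954-35066253, plus strand) is shown as the largest difference in the window, with capitals at matches to AP-1.
Slit3 most raised peak: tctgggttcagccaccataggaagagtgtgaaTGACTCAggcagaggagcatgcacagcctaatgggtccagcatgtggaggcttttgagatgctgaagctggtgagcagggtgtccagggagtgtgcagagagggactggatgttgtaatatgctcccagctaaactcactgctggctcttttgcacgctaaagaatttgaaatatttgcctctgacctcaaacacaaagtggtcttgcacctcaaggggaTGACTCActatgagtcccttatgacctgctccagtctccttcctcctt

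**Figure D4:**
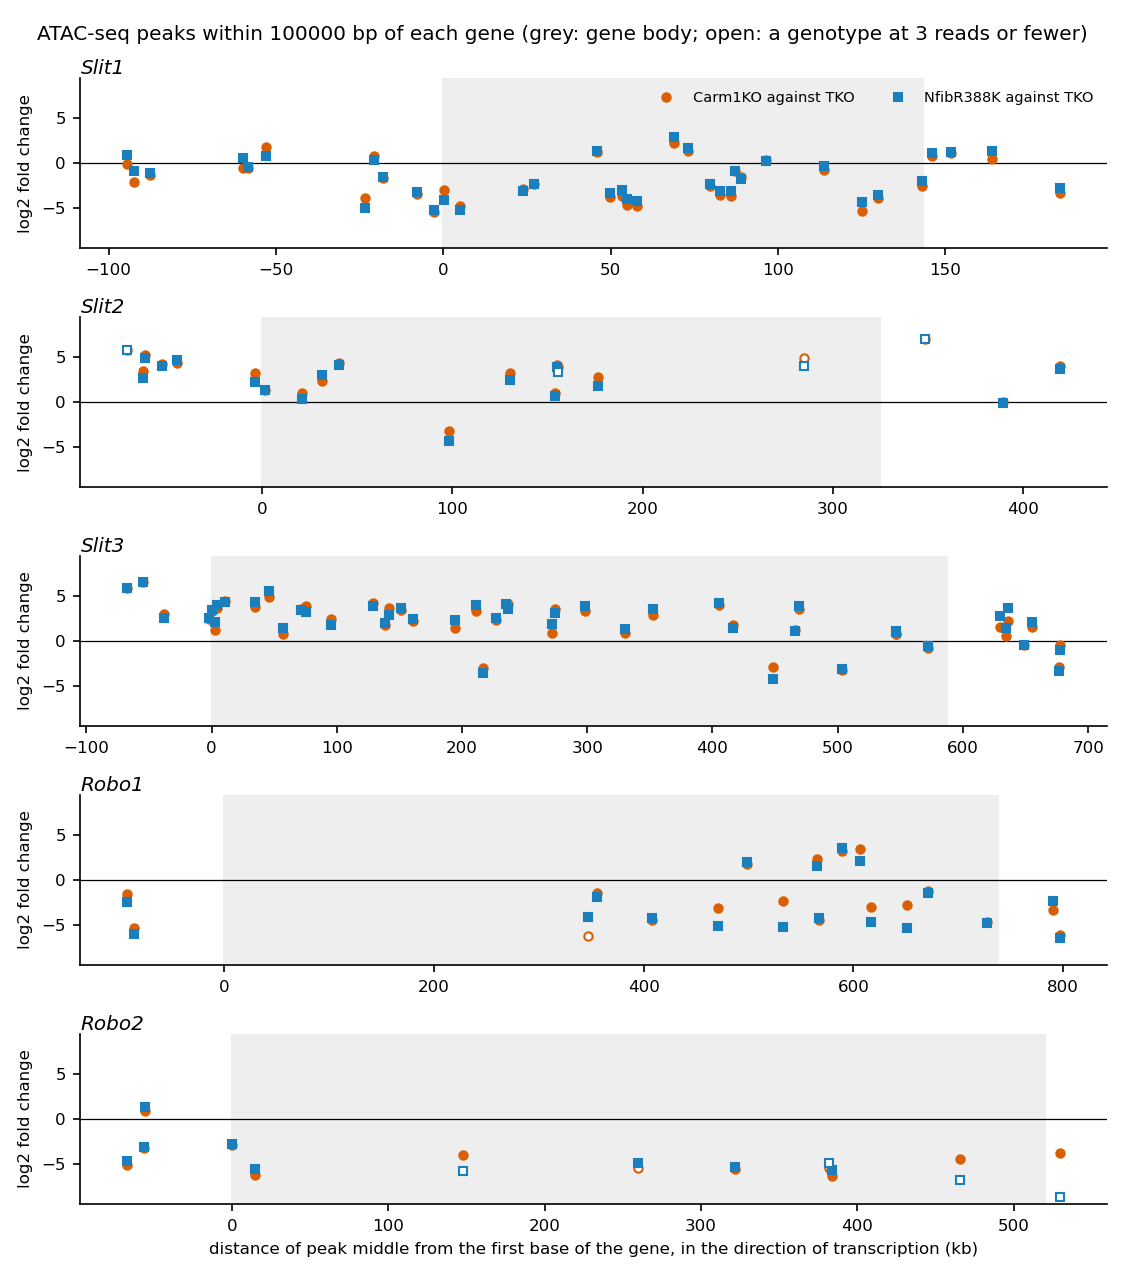
Log2 fold change against TKO of each window peak over the distance in kb of its middle from the gene's first base, for Slit1, Slit2, Slit3, Robo1 and Robo2, with Carm1KO as circles, NfibR388K as squares and the gene body in grey; open symbols are peaks with at most 3 reads in every library of a genotype, whose fold depends on the prior count. Around Slit2, 19 of 20 peaks lie above 0 in Carm1KO, and around Robo2 11 of 12 lie below 0 in both.

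Around Slit1 (chr19:41600257-41743665, minus strand), 5 of 36 peaks were called higher and 21 lower in both mutants, against 35% and 30.8% of all peaks. The median log2 fold change was -2.23 in Carm1KO and -1.89 in NfibR388K tumors. The start-site peak, chr19:41742272-41744424, held 28.7, 24.9 and 2.53 CPM in TKO, 1.14, 1.55 and 4.25 CPM in Carm1KO and 1.4, 1.18 and 0.785 CPM in NfibR388K tumors. TKO replicate 3 was low here and Carm1KO replicate 3 was above it, so these groups overlapped. The TKO RNA library of the same number was low as well, but the labels do not pair the assays by number. The peak fell by 3.02 (edgeR adjusted p = 0.00691) and 4.06 (edgeR adjusted p = 0.0018) on the log2 scale. A peak 2697 bp upstream, chr19:41745333-41747392, separated the genotypes: it held 41.9, 55.8 and 16.6 CPM in TKO against 0.852, 0.768 and 1.04 CPM in Carm1KO and 1.85, 0.625 and 0.569 CPM in NfibR388K tumors. It fell by 5.42 and 5.24 on the log2 scale (edgeR adjusted p = 6.93e-05 and 6.84e-05), the largest fall of the window.

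The opposite change was seen in an intron of Slit1, where the peak at chr19:41674352-41674831 rose by 2.23 (edgeR adjusted p = 0.0221) and 2.87 (edgeR adjusted p = 0.00663) on the log2 scale from 0.287, 0.464 and 0.0422 CPM in TKO. The peak with the most reads, chr19:41829256-41833245 at Frat1, fell by 1.27 (edgeR adjusted p = 0.00352) and 1.07 (edgeR adjusted p = 0.00771). The summed window held 451, 457 and 138 CPM in the TKO libraries, 111 ± 12.1 CPM in Carm1KO and 124 ± 5.07 CPM in NfibR388K tumors, so TKO replicate 3 stood near the mutants. The middle of the upstream peak that fell most (chr19:41746212-41746511, plus strand, GRCm38.p6) is shown with capitals at matches to the short NFI site.
Slit1 most lowered peak: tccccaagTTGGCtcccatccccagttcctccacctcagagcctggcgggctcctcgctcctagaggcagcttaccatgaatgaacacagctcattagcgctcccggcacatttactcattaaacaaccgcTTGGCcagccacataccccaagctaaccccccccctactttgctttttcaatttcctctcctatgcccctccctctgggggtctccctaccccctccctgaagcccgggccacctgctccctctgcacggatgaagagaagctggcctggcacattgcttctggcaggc

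Around Robo1 (chr16:72308306-73046095, plus strand), 2 of 18 tested peaks were called higher and 14 lower in both mutants, against 35% and 30.8% of all peaks. The median log2 fold change was -2.94 and -4.21. The strongest start-site peak, chr16:72662739-72664870, lay at an internal start of the gene and held 45.7, 53.9 and 37.7 CPM in TKO, 24.4, 16.2 and 8.03 CPM in Carm1KO and 17.7, 4.55 and 15.2 CPM in NfibR388K tumors. It fell in both mutants, by 1.498 (edgeR adjusted p = 0.0173) and 1.87 (edgeR adjusted p = 0.00584) on the log2 scale, while Robo1 RNA was called lower in NfibR388K tumors and missed the threshold in Carm1KO tumors. The largest fall, 6.10 and 6.42 on the log2 scale, was at chr16:73104851-73106462, past the gene's end in an intron of 4930500H12Rik, with 22, 31.8 and 7.64 CPM in TKO and at most 0.413 CPM in any mutant library (edgeR adjusted p = 9.13e-05 and 6.79e-05). An intronic peak, chr16:72896821-72897895, rose by 3.22 and 3.51, from 0.223, 0.525 and 1.1 CPM in TKO to 9.97, 4.09 and 3 CPM in Carm1KO and 4.63, 2.96 and 13.3 CPM in NfibR388K tumors. The middle of the peak that fell most (chr16:73105506-73105805, plus strand, GRCm38.p6) is shown with capitals at the short NFI site.
Robo1 most lowered peak: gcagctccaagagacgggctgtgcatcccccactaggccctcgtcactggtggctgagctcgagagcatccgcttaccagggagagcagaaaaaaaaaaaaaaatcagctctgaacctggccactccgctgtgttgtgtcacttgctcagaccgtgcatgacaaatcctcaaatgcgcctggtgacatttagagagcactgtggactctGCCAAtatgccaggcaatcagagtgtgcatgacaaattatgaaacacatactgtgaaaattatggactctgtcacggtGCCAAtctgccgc

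Around Robo2 (chr16:73891839-74411825, minus strand), 11 of 12 tested peaks were called lower in both mutants and none was called higher, against 30.8% and 35% of all peaks. The median log2 fold change was -4.79 and -5.16, or -4.61 and -4.68 with peaks at 3 reads or fewer at their bound. All 11 peaks whose 6 mutant libraries did not overlap TKO were lower. The start-site peak, chr16:74409658-74413530, held 42.4, 49.9 and 42.7 CPM in TKO, 5.45, 4.34 and 8.07 CPM in Carm1KO and 8.48, 1.76 and 9.44 CPM in NfibR388K tumors. It fell by 2.92 (SE 0.51, edgeR adjusted p = 0.000805) and 2.78 (SE 0.51, edgeR adjusted p = 0.000919) on the log2 scale, with TKO replicate 3 level with the other TKO libraries here. The TKO RNA library of the same number was high for Robo2, but the labels do not pair the assays by number. The summed window held 85.4 ± 14.96 CPM in TKO, 8.34 ± 2.19 CPM in Carm1KO and 9.24 ± 5.85 CPM in NfibR388K tumors. The bases before the Robo2 start, within that peak, are printed in the direction of transcription (chr16:74411826-74412075, minus strand, GRCm38.p6), with the E-box in capitals.
Robo2 before the start: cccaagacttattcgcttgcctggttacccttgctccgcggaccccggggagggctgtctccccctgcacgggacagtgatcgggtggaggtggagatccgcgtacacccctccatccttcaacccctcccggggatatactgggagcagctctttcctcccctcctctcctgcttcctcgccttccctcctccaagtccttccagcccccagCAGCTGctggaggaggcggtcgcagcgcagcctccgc

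Robo3 (chr9:37415669-37433246, minus strand) and Robo4 (chr9:37401897-37415115, plus strand) lie 554 bp apart, and all 8 window peaks of Robo4 were among the 10 of Robo3. Of these 10, 1 was called higher and 4 lower in both mutants, against 35% and 30.8% of all peaks. The peak at the Robo3 start, chr9:37430618-37431263, held 2.35 to 3.08 CPM in TKO, 2.96 to 3.14 CPM in Carm1KO and 2.06 to 3.3 CPM in NfibR388K tumors. It was not called, with log2 fold changes of 0.23 (edgeR adjusted p = 0.609) and 0.02 (edgeR adjusted p = 0.973). A peak at chr9:37456210-37457449 fell by 3.75 and 3.84, from 14.7, 25.6 and 5.83 CPM in TKO to at most 1.67 CPM in the mutants (edgeR adjusted p = 0.000579 and 0.000465). A peak at chr9:37517341-37517851 rose by 2.83 and 2.93, from 0.216 to 0.382 CPM in TKO to 1.21 to 2.65 CPM in the mutants. The peak with the most reads, chr9:37488191-37490755, held 43.3 to 47.8 CPM in TKO, 34.5 to 44.4 CPM in Carm1KO and 28.2 to 41.5 CPM in NfibR388K tumors and was not called, with log2 fold changes of -0.27 and -0.42 that turned positive when libraries were scaled by their totals or by the start-site peaks of uniformly expressed genes.

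**Figure D5:**
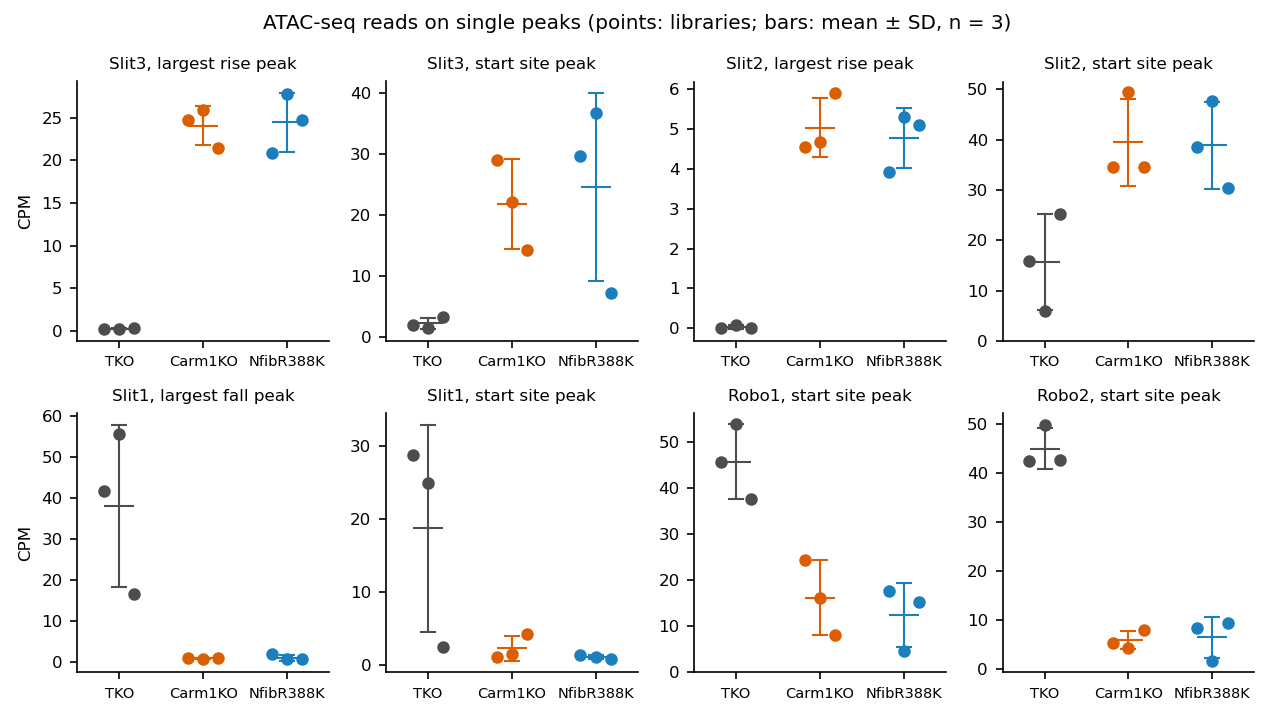
ATAC reads in CPM at the most raised peak of Slit3 and Slit2, the most lowered peak of Slit1, and the start-site peaks of Slit3, Slit2, Slit1, Robo1 and Robo2, by genotype; points are libraries and bars are mean ± SD (n = 3). The most raised Slit3 peak lies at 20.9 to 27.8 CPM in all mutant libraries, and the most lowered Slit1 peak lies at 16.6 to 55.8 CPM in TKO and at or under 1.85 CPM in the mutants.

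Between the mutants, 0% of all peaks were called by edgeR (smallest adjusted p 0.124), while 6814 peaks had an unadjusted p under 0.05 and DESeq2 called 523 higher and 537 lower in Carm1KO. Of the 142 window peaks tested, 0 were called by either tool, 2 had an unadjusted p under 0.05, and the smallest edgeR adjusted p was 0.579. For the most raised Slit3 peak the log2 fold change between the mutants was -0.02.

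Short motifs were counted on both strands in the 300 bases in the middle of each peak: AP-1 (TGANTCA), TEAD (GGAATG), E-box (CAGCTG), forkhead (TGTTTAC), the short NFI site (TTGGC) and the full NFI site (TTGGC, any 5 bases, then GCCAA, which contains the short one). AP-1 matched 23.7% of all peaks, 41.7% of those called higher in both mutants and 7.87% of those called lower in both. It matched 13 of the 29 Slit3 peaks that were higher in all mutant libraries (44.8%) and 7 of the 15 of Slit2 (46.7%), but 0 of 14 lower peaks of Slit1, 0 of 11 of Robo1 and 1 of 11 of Robo2. These shares were near those of all peaks with the same direction, so they are not particular to the family. TEAD matched 9 of the 29 Slit3 peaks (31.0%) and 2 of the 15 Slit2 peaks, beside 25.2% of all peaks called higher in both. The E-box matched 6 of 14 lower Slit1 peaks (42.9%), 3 of 11 of Robo1 and 3 of 11 of Robo2, beside 28.1% of all peaks called lower in both. The full NFI site was in 112 of all peaks and in 0 of the 144 peaks around the family, and the short NFI site was in 50.6% of all peaks. The short site was in 51.7% of the higher Slit3 peaks and 46.7% of those of Slit2, beside 46.6% of all peaks called higher in both. It was in 57.1% of the lower peaks of Slit1, 45.5% of Robo1 and 63.6% of Robo2, beside 56.8% of all peaks called lower in both. In the promoters of the RefSeq table (250 bases before to 50 after a start), the short NFI site was in 46.7% of 32851 entries. The Slit2 entry held 2, the Robo4 entry held 1, the entries of Slit3, Robo1 and Robo3 held 0, and those of Robo2 held 0 to 1. Slit1 had no entry. A match is a description of the letters and not of binding.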

How the data were processed

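RNA and accessible chromatin were profiled in 9 libraries each. The authors trimmed the RNA reads with trim-galore, aligned them with HISAT2 to mm10 and counted them per gene with htseq-count, and the deposited table holds raw counts. ATAC reads were aligned with Bowtie2, PCR duplicates were taken out with Picard, and peaks were called with MACS2 by the Methods (the submitters' processing notes name Genrich). The deposited ATAC counts are reads per merged peak, with a header naming featureCounts 1.6.3, and regions of putative copy-number change had been removed by the authors. Counting by strand is not stated. Columns coded C, KO and N were read as TKO, Carm1KO and NfibR388K after the study's own group names.

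Counts were normalized by TMM and tested across all features with edgeR 4.0.16's quasi-likelihood test (R 4.3.3; filterByExpr; 9 libraries in 1 fit), with Benjamini-Hochberg adjustment. Calls needed an adjusted p under 0.1 and a log2 fold change beyond 0.8 (RNA) or 0.5 (ATAC). Levels are CPM with TMM factors; the log2 scale of the RNA plot adds 0.1. For likeness, a prior count of 2 was added. Intervals are 95%. A genotype with at most 3 counts in each library gave a lower bound against that floor, which covers counting error only. The scripts were tested on simulated data. The members and gene lists were chosen with earlier results of these data known. All members were named, with the 3 genes of each list that rose and fell most, the 3 most alike genes per member (5 for Slit3), and per window the start-site peak, the peak with most reads and those with the largest rise and fall; other list genes and the Slit3 peak near Mir218-2 were named after their values were seen. DESeq2 1.42.0, other scalings and filters, a replicate block, 2-group fits, 50000 bp windows and fits without each library were the alternatives.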

Additional observations from a re-analysis of the deposited data

How the results depend on the processing

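All 4 testable members kept their NfibR388K calls without any 1 library (4 called in each fit). In Carm1KO tumors the members called ranged from 1 to 3 when a library was left out. It was 1 without Carm1KO replicate 1 or 2 or TKO replicate 1 or 2, and also with no filter. Slit2 was the call that stayed there. With at least 10 counts in every library, 2 members could be tested, and 1 was called in Carm1KO and 2 in NfibR388K tumors. Window peaks called ranged from 71 to 85 (Carm1KO) and from 72 to 84 (NfibR388K) without 1 library, around 79 and 77, and were 27 and 28 of 39 testable peaks with at least 10 counts in every library, a filter that left fewer peaks. Between the mutants the count stayed at 0 to 0.

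Replicate numbers did not pair the samples, since same-numbered libraries deviated from their genotype means with r from -0.297 to 0.118. With the number as a replicate block, the members called were 1 (Carm1KO) and 4 (NfibR388K), and the window peaks 74 and 76.

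Directions turned in values that were not called. The difference between the mutants ran from -0.28 (Slit1 without Carm1KO replicate 3) to 5.80 and from -0.11 (Slit2 without NfibR388K replicate 3) to 1.02 when a library was left out. The peak with most reads by Robo3 and Robo4 was at 0.31 and 0.15 in Carm1KO and NfibR388K tumors with library totals and at 0.13 and 0.035 with scaling by 847 start-site peaks of 884 uniform genes. The Robo3 start-site peak in NfibR388K tumors was at -0.12 by DESeq2, at -0.13 with its size factors, and at -0.17, -0.03 and -0.06 without NfibR388K replicate 3, TKO replicate 1 and TKO replicate 2, up to 0.17 without NfibR388K replicate 1. Causes were not tested. Robo3 RNA had at most 17 counts in a library and Robo4 RNA had 0 in every library, so neither could be tested. Whether depth or absent expression lay behind this was not tested.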
